A study of Mus musculus with 1 sample.

Results

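Chemokines and their receptors were read in 1 RNA-seq library of cultured mouse glia. The members were all genes whose symbol begins with Ccl, Ccr, Cxcl, Cxcr, Cx3cl, Cx3cr, Xcl, Xcr or Ackr, followed by a number and an optional letter. This rule found 61 gene symbols of 23238 in the table, held in 65 of its 23282 rows. Of the 61 members, 39 were ligands and 22 were receptors. The rule used names only and no measured value.

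The cells were mixed glia of the ventral midbrain (VM), the region that holds the dopamine neurons lost in Parkinson disease, from outbred ICR (CD-1) mice at postnatal day 5. The study asked what inhibition of the kinase SGK1 does in such glia. The library was labelled as a control, which the study describes as given the vehicle dimethyl sulfoxide, and whether it also received the toxins named in the treatment protocol is not given in the sources used here. How many animals or cultures were pooled is not given either, and inhibitor-treated glia were not analysed here. A lone library has no replicate, which means that the values carry no error between cultures and that groups could not be tested against each other. The values were the authors' normalised read counts per gene, with a sum of 27569507, and the number of reads behind them is unknown.

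Chemokines are small secreted proteins that guide the movement of cells along a gradient. They are sorted by the spacing of a pair of cysteines near the start of the mature protein into CC, CXC, CX3C and XC types. Most signal through receptors with several membrane passes that couple to inhibitory G proteins. Atypical receptors (Ackr) bind chemokines without that coupling and take them up. In the brain, neurons carry the membrane-bound ligand Cx3cl1 and microglia carry its receptor Cx3cr1, and astrocytes and microglia release CC and CXC ligands when activated.

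The cysteine pair that names each ligand type can be read in the coding sequence. The stretches below are shown for ligands that the level and cluster results turn on. They were taken from GENCODE M21 transcripts on GRCm38 and run 5′ to 3′ on the coding strand, with the cysteine codons in capitals.
Ccl4 (chr11:83663470-83663496, plus strand): cctcccacttccTGCTGTttctcttac
Ccl6 (chr11:83589377-83589403, minus strand): acttcttcagacTGCTGCttctcttat
Ccl9 (chr11:83575917-83575943, minus strand): gactcttcagatTGCTGCctgtcctat
Ccl2 (chr11:82036494-82036520, plus strand): gccccactcaccTGCTGCtactcattc
Ccl12 (chr11:82102622-82102648, plus strand): accccagtcacgTGCTGTtataatgtt
Ccl27a (chr4:41769936-41769962, minus strand): tccagcactagcTGCTGTactcagctc
Ccl27b (chr4:42655513-42655539, plus strand): tccagcactagcTGCTGTactcagctc
Cxcl16 (chr11:70459118-70459147, minus strand): gtcgctggaagtTGTtctTGTgatcgtacc
Cxcl10 (chr5:92348172-92348201, minus strand): aggacggtccgcTGCaacTGCatccatatc
Cxcl1 (chr5:90891484-90891513, plus strand): aatgagctgcgcTGTcagTGCctgcagacc
Cxcl2 (chr5:90904130-90904159, plus strand): agtgaactgcgcTGTcaaTGCctgaagacc
Cxcl3 (chr5:90786356-90786385, plus strand): agtgagctgcgcTGTcagTGCctgaacacc
Cx3cl1 (chr8:94778039-94778074, plus strand): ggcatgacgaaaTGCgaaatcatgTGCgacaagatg
In the CC ligands the codons touch, in the CXC ligands a codon separates them, and in Cx3cl1 a longer run does. The searched coding sequence held the CXC spacing in all 13 CXC ligands. Adjacent cysteine codons were the first pair met in 18 of the 20 CC ligands searched, and in Ccl24 and Ccl25 the search, which began at codon 16, met another spacing first. Just before the pair, 5 ligands had codons for glutamate, leucine and arginine, the feature of CXC ligands that attract neutrophils, and these were Cxcl1, Cxcl2, Cxcl3, Cxcl5 and Cxcl15. The Ccl27a and Ccl27b stretches differed at 0 of 27 bases and those of Cxcl2 and Cxcl3 at 3 of 30.

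For the receptors, the stretch around the codons for aspartate, arginine and tyrosine is shown, a feature at the inner end of the third membrane passage through which such receptors couple to G proteins. The 3 codons are in capitals.
Cx3cr1 (chr9:120051933-120051965, minus strand): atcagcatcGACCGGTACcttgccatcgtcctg
Cxcr2 (chr1:74158763-74158795, plus strand): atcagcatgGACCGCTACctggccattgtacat
Ccr4 (chr9:114492573-114492605, minus strand): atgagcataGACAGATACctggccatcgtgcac
Ackr3 (chr1:90214232-90214264, plus strand): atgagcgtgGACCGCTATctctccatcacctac
These codons were found in 16 of 18 conventional receptors, all but Cxcr6 and Xcr1. Among the atypical receptors they were found in Ackr3 and Ackr4, which were both detected, and not in Ackr1 and Ackr2, which were not.

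Detection was set at a normalised read count of 10. Of the 61 members, 38 (62.3%) were detected, against 67.2% of all rows of the table, so detection was not more common among chemokine genes than among genes at large. Another 9 members lay between 1 and 9, and 14 were listed at 0. The median member had a value of 75, against 119 over all rows, and 25 members (41.0%) reached 100, against 51.6% of all rows. The members together held 0.136% of the sum of all values. Just inside the detection minimum stood Cxcl3 at 13, and just outside it Cxcr3 at 9 and Cxcl11 at 8.

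**Figure D1:**
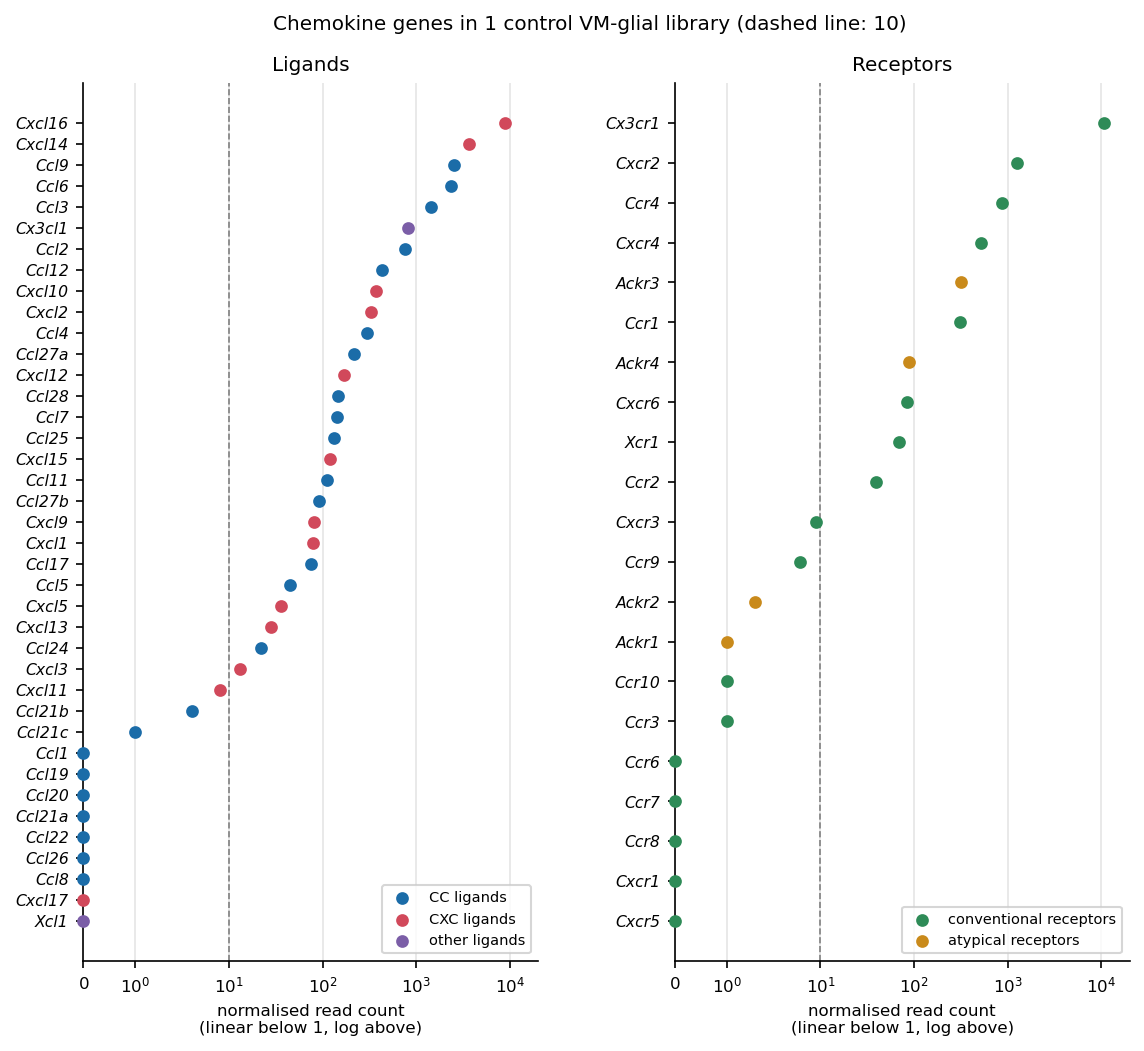
Normalised read count (x axis, linear below 1 and log above) of 39 ligands (left) and 21 receptors (right) in the control library, 1 point a gene, coloured by type. The dashed line is the detection minimum of 10. Cxcl16 at 8760 leads the ligands, Cx3cr1 at 10560 stands apart from the other receptors, and 14 genes lie at 0.

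Ligand RNA was dominated by a few genes. Of 39 ligands 27 (69.2%) were detected, against 67.2% of all rows. The 5 with the highest values, Cxcl16, Cxcl14, Ccl9, Ccl6 and Ccl3, held 80.5% of the ligand sum. Divided by the length of all annotated exons, the same 5 genes held 71.7%. With the longest coding transcript as the length, Ccl2 (940 per kb) passed Ccl9 (843 per kb), so the lowest place among the 5 is not fixed. The ranking plot of normalised read counts shows the 5 genes with the highest values at the top of the left panel. A long series of ligands between 13 and 820 lies below them.

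Among the 13 CXC ligands, 11 (84.6%) were detected, against 67.2% of all rows. Cxcl16, a membrane-bound ligand that also takes up oxidised lipoproteins, had a normalised read count of 8760. Its level of 2900 per kb of exon was the highest of all members. Of the Cxcl16 exon bases, 18.3% lie opposite exons of Zmynd15, which had a value of 629, and the strand setting of the counting is not given in the sources used here. Cxcl14, a ligand of resting epithelia and brain without an agreed receptor, stood at 3619 (1981 per kb). Per kb it was 97.0-fold above Cxcl12 (167, 20.4 per kb), which holds precursor cells in their niches, and 66.7-fold when the longest coding transcript gave the length.

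The interferon-inducible ligands of Cxcr3 were uneven. Cxcl10 had a value of 371 and Cxcl9 of 80, while Cxcl11, annotated in GENCODE as a polymorphic pseudogene, was under the minimum at 8. Per kb, Cxcl10 was 6.21-fold above Cxcl9 (9.90-fold with the longest coding transcript), and exons of Art3, which was listed at 0, lie opposite 5.91% of its exon bases. Of the ligands that attract neutrophils, Cxcl2 stood at 328, Cxcl15 at 120, Cxcl1 at 78, Cxcl5 at 36 and Cxcl3 at 13. Per kb of exon, Cxcl2 was 3.81-fold above Cxcl1 and 42.7-fold above Cxcl3, but 2.16-fold and 13.8-fold above them with the longest coding transcript as the length. Cxcl13, which organises B cell follicles, was low at 28, and Cxcl17, a mucosal protein, was listed at 0.

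Among the 24 CC ligands, 15 (62.5%) were detected, against 67.2% of all rows. The highest values belonged to ligands of the macrophage inflammatory protein group, Ccl9 at 2535, Ccl6 at 2334 and Ccl3 at 1424, with Ccl4 at 294 and Ccl5, the ligand best known from T cells, at 45. Ccl9 and Ccl6 are rodent ligands. Per kb, Ccl3 led at 1859, then Ccl6 at 1300, Ccl9 at 833, Ccl4 at 445 and Ccl5 at 46.9.

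The monocyte-attracting ligands of Ccr2 came next, with Ccl2 at 764, Ccl12 at 434 and Ccl7 at 143. Per kb, Ccl12 was 1.20-fold above Ccl2, but 0.860-fold its level with the longest coding transcript, so their order is not fixed by these data. Ccl2 was 3.76-fold above Ccl7 on the per kb scale. The eosinophil attractants Ccl11 and Ccl24 stood at 110 and 22. Ligands of lymphocytes in skin, gut and thymus followed, with Ccl28 at 147, Ccl25 at 132 and Ccl17 at 75. Exons of Elavl1 (value 1567) lie opposite 2.74% of the Ccl25 exon bases.

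Ccl27a and Ccl27b, copies of a skin ligand, had values of 216 and 92, and neither value is certain. Of the 50-base words in their transcripts, 45% of those of Ccl27a and 98.1% of those of Ccl27b also occur in other genes, including Gm13306 (value 57) and Gm20878 (value 8). Ccl27a also touches an exon of the highly read Il11ra1 (2450) over 8 bases. Among the 38 detected members, Cxcl16 was the other with more than 10% of words shared, at 16.9% with Zmynd15.

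The CC ligands listed at 0 were Ccl1, Ccl8, Ccl19, Ccl20, Ccl21a, Ccl22 and Ccl26. Ccl21b was at 4 and Ccl21c at 1, so no ligand of the lymph node receptor Ccr7 reached the minimum. Ccl19, Ccl21a and Ccl21b had 2, 2 and 3 rows and no single gene match, and they were not in the search for shared words. As the treatment of multi-mapped reads is not given, their low values do not show absence. Of the remaining types, Cx3cl1, the membrane-bound ligand known from neurons, had a value of 820, while Xcl1, a product of T and NK cells, was at 0.

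Of the 22 receptors, 11 (50%) were detected, against 67.2% of all rows. Cx3cr1, the microglial receptor, had a value of 10560 and alone held 73.9% of the receptor sum. With Cxcr2 (1269) and Ccr4 (865), the 3 highest held 88.8%. Per kb, Cx3cr1 stood at 2344, which was 5.63-fold above Cxcr2 at 416. Cxcr4 (518, 287 per kb) and Ccr4 (280 per kb) lay next to each other, and on this scale Cxcr4 took the place of Ccr4 among the 3 highest, which held 83.7%. With the longest coding transcript as the length, Ccr4 (308 per kb) lay above Cxcr4 (287 per kb), so their order is not fixed by these data.

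Cxcr2 is known from neutrophils and oligodendrocyte precursors, Ccr4 from helper and regulatory T cells, and Cxcr4 from many migrating cells. The monocyte and macrophage receptors Ccr1 and Ccr2 were lower, at 311 (110 per kb) and 39 (5.77 per kb). On the per kb scale Cx3cr1 was 406-fold above Ccr2, the receptor that marks monocytes coming from the blood.

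Cxcr6 (84) and Xcr1 (69), known from lymphocytes and cross-presenting dendritic cells, were detected at low values. Both are the conventional receptors without the aspartate, arginine and tyrosine codons. Cxcr3 was at 9, Ccr9 at 6, Ccr3 and Ccr10 at 1. Ccr6, Ccr7, Ccr8, Cxcr1 and Cxcr5 were listed at 0.

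Of the 4 atypical receptors, Ackr3, which takes up Cxcl12, had a value of 320 and Ackr4, which takes up Ccl19, Ccl21 and Ccl25, a value of 89. Exons of Acad11 (value 815) lie opposite 8.90% of the Ackr4 exon bases. Ackr2, the scavenger of inflammatory CC ligands, was at 2 and Ackr1, the receptor of red cells and venules, at 1.

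Ligands and receptors were joined by their textbook binding into 58 pairs over 21 receptors. In 22 pairs both sides were detected, in 20 the ligand only, in 7 the receptor only and in 9 neither. Of the 11 detected receptors, 10 had at least 1 detected ligand. The exception was Xcr1 at 69, whose ligand Xcl1 was at 0. Of all ligands 69.2% were detected and of all receptors 50%, and a receptor with several listed ligands more easily has 1 detected. Whether the pair counts here and below differ from what those shares alone would give was not tested.

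Of the 10 undetected receptors with a pair, 7 had a detected ligand. These were Ccr3, Ccr9, Ccr10, Cxcr1, Cxcr3, Cxcr5 and Ackr2. At Ackr2, 7 of 8 ligands were detected, with a summed value of 2855 against a receptor value of 2. The ligands of Ccr3 summed to 467 and those of Ccr10 to 455, each against a receptor value of 1, and those of Cxcr3 to 459 against 9. For Ccr6, Ccr7 and Ccr8 no ligand was detected either. Since 1 bulk library was measured, fewer cells of a type and less RNA per cell cannot be told apart, and which cells carried either side was not measured.

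Within the 22 pairs, the ligand was higher per kb in 13 and the receptor in 9. The log2 ratio of ligand to receptor per kb, with a pseudocount of 1, ran from -6.70 for Cxcl3 and Cxcr2 to 7.10 for Ccl12 and Ccr2. The detected ligands of Ccr2 all lay above their receptor, those of Cxcr2 all lay below it, and Ccr1 had ligands on both sides. Those of Ackr4 lay above it per kb of exon, but not all did with the longest coding transcript. Cxcr6, Cxcr4, Ccr4, Cx3cr1 and Ackr3 had 1 detected ligand each, which could lie on 1 side only. It lay above Cxcr6 and below the others.

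The receptor-rich pairs were led by Cxcr2. It exceeded Cxcl2 2.62-fold, Cxcl1 9.89-fold, Cxcl5 21-fold and Cxcl3 104-fold on the per kb scale. With the longest coding transcript as the length, the log2 ratio of ligand to receptor moved from -3.31 to -2.33 for Cxcl1 and from -6.70 to -4.92 for Cxcl3. Cxcr4 was 14.0-fold above Cxcl12, its sole ligand in the list, and Ackr3 was 4.67-fold above the same ligand. Cx3cr1 was 11.2-fold above Cx3cl1. Ccr4 was 1.89-fold above Ccl17, while its other ligand Ccl22 was at 0.

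In the ligand-rich pairs, Ccl12 was 137-fold, Ccl2 114-fold and Ccl7 30.4-fold above Ccr2. Cxcl16 was 65.9-fold above Cxcr6. Ccl3 stood 16.9-fold above Ccr1. Around Ccr1, Ccl6 (11.8-fold), Ccl9 (7.56-fold) and Ccl7 (1.63-fold) also lay above it, while Ccl5 had 0.435-fold its level. The log2 ratio of Ccl5 to Ccr1 moved from -1.20 to -0.35 with the longest coding transcript as the length.

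Around Ackr4 the ratios depended on the length used. Ccl25 had a log2 ratio of 0.09 to Ackr4 per kb of exon, and 1.74 when the longest coding transcript gave the length. For Cxcl13 the ratio turned from 0.59 to -0.58, so its direction is not settled.

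**Figure D2:**
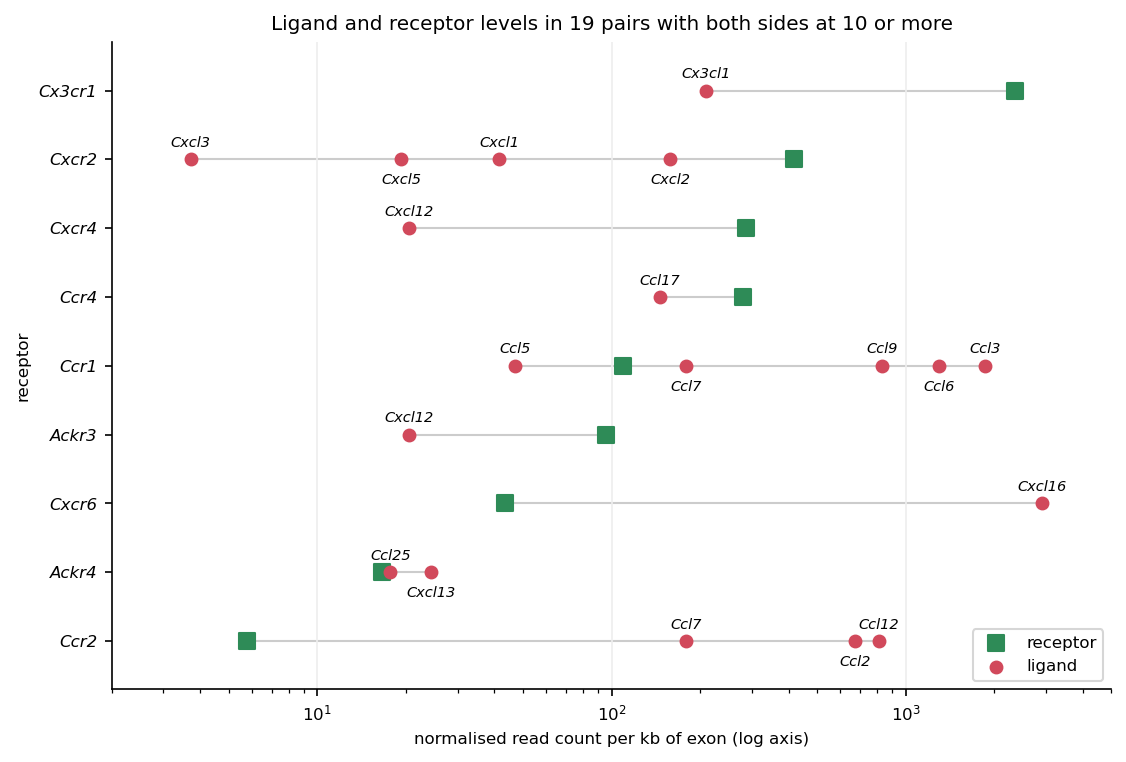
Normalised read count per kb of exon (log x axis) of receptors (green squares) and their detected ligands (red circles) for 19 of the pairs with both sides at 10 or more, 1 row a receptor. Ligands of Cxcr2, Cxcr4 and Cx3cr1 lie to the left of their receptor, and those of Ccr2 and Cxcr6 to its right.

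Of the 61 members, 29 were found in clusters. Groups of at least 3 members with gaps of at most 300 kb were found at 6 places in GRCm38, and levels differed widely within each. Ccl19, Ccl21a and Ccl21b, without a single gene match, and Ccl21c, outside the numbered chromosomes, were not searched. RefSeq windows place Ccl19 (chr4:42756316-42756615) and Ccl21a (chr4:42773942-42774241) near Ccl27b (chr4:42655251-42656005), a group not counted here. The macrophage inflammatory cluster on chromosome 11 (83525778 to 83664683) was detected throughout, with a summed value of 6632 over 5 genes. Ccl5, Ccl9, Ccl6, Ccl3 and Ccl4 follow each other there, and Ccl9 was 17.8-fold above Ccl5 per kb (9.97-fold with the longest coding transcript). Ccl3 and Ccl4 are 13.229 kb apart on opposite strands, and Ccl3 was 4.17-fold the higher per kb.

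The monocyte attractant cluster on chromosome 11 (82035571 to 82305690) had a sum of 1451 over 6 genes. Its first 4 genes, Ccl2, Ccl7, Ccl11 and Ccl12, were detected, and the last 2, Ccl8 and Ccl1, were at 0. On chromosome 5 (90759360 to 90905938), all 5 members of the cluster, which attract neutrophils, were detected, with a sum of 575. CXC ligands outside the symbol rule, such as Ppbp at 4, were not counted in clusters. The cluster of Cxcl9, Cxcl10 and Cxcl11 (chromosome 5, 92321347 to 92365485) peaked in its middle gene. On chromosome 8 (94745590 to 94812036), Cx3cl1 lies between Ccl22 at 0 and Ccl17 at 75.

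In the receptor cluster on chromosome 9, Ccr9 at 6 comes first, then Cxcr6 at 84, Xcr1 at 69, Ccr1 at 311, Ccr3 at 1 and Ccr2 at 39. Per kb, Ccr1 was the highest of these at 110, and Ccr3, the next member of the symbol rule along the chromosome, the lowest at 0.306.

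**Figure D3:**
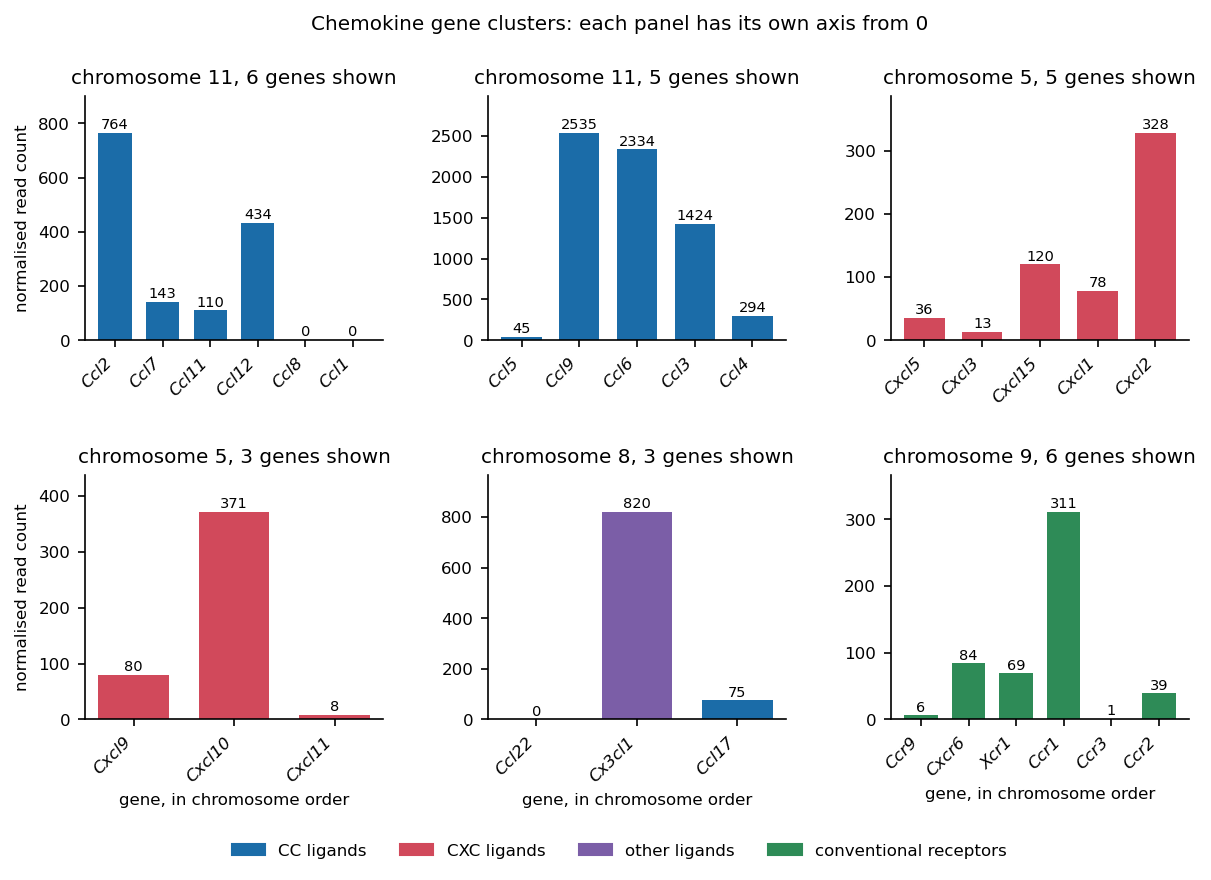
Normalised read count (y axis, from 0, own scale in each panel, not divided by length) of genes in the 6 clusters found among members with a single gene match, 1 bar a gene in chromosome order, coloured by type. Neighbours differ widely: Ccl9 reads 2535 beside Ccl5 at 45, and Ccl8 and Ccl1 at the end of their cluster read 0.

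Sequences upstream of the start were examined next, as NF-kappaB, AP-1 and interferon-driven factors are known to act on inflammatory chemokine genes. RefSeq windows from 250 bases before to 50 bases after the start (GRCm38.p6) were at hand for 45 of the 61 members. The upstream parts of Cxcl1, Cxcl2, Cxcl3 and Cxcl10 are shown because they hold the consensus and come from clusters with unequal levels. They run 5′ to 3′ on the coding strand and end at the base before the RefSeq start, and the GENCODE exons of Cxcl1 and Cxcl2 begin within their last bases. Capitals mark the kappaB consensus and, in Cxcl10, also the interferon response letters (GAAA, any 2 bases, GAAA) and TGANTCA.
Cxcl1 (chr5:90891125-90891244, plus strand): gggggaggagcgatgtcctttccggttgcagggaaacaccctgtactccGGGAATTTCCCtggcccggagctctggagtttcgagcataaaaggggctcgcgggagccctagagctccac
Cxcl2 (chr5:90903779-90903898, plus strand): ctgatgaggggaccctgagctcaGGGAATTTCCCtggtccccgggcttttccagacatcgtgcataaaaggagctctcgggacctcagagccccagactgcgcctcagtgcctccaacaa
Cxcl3 (chr5:90785981-90786100, plus strand): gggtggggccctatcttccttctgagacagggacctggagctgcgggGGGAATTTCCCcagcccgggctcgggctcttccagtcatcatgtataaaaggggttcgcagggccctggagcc
Cxcl10 (chr5:92348890-92349139, minus strand): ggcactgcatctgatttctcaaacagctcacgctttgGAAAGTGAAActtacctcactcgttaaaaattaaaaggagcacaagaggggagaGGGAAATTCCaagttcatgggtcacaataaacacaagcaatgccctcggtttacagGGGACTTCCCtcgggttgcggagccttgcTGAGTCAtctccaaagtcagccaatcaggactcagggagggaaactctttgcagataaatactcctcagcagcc
The capitals in Cxcl1, Cxcl2 and Cxcl3 are the same letters, which match the consensus on both strands with an overlap. They begin 71, 97 and 73 bases before the RefSeq start, beside values of 78, 328 and 13. In GENCODE, Cxcl2 begins earlier, at 90903871, so these distances depend on the annotated start. In Cxcl10 the consensus begins 159 and 103 bases before the start.

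Both strands were searched in every window. The kappaB consensus was in 10 of 45 member genes (22.2%) and in 5.14% of the 27025 genes with a window. It was in 6 of 29 detected members (20.7%), which were Ccl27a, Ccl9, Cxcl1, Cxcl10, Cxcl2 and Cxcl3, and in 4 of 16 members under 10 (25%). The AP-1 letters TGANTCA were in 8 members (17.8%), against 8.97% of all genes. The letters TATAAA were in 14 members (31.1%), of which 13 were detected, against 15.7% of all genes. The interferon response letters were in 3 members (6.67%), Ccl19, Cxcl10 and Cxcl14, against 3.99%. TTCNNNGAA was in 3 (6.67%), against 9.55%, and the PU.1 letters GAGGAAGT in 1 (2.22%), against 3.69%. A match describes the letters in the window and does not show a bound site. Member windows had a median of 4 CpG, against 8 for all genes.

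Genes that carry or shape a chemokine signal were read in 7 lists of chosen genes. Of 63 genes in these lists, 61 were detected and 59 reached 100, against 67.2% and 51.6% of all rows. The lists were chosen with earlier results of these data known and do not hold every gene of each kind, so this contrast is not a test. All 11 G protein subunits were detected, with a median of 2023 against 119 over all rows. The inhibitory subunit Gnai2 (39839), Gnb1 (18819) and Gnb2 (6769) had the highest values, and Gnai1 (200) the lowest.

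All 7 kinases and arrestins that switch receptors off were detected (median 1186), with Adrbk1 at 6203, Arrb2 at 5101 and Arrb1 at 1537 on top and Grk4 at 218 at the bottom. Of the 8 RGS proteins, which speed the return of G proteins to rest, 6 were detected (median 615.5). Rgs10 (6581), Rgs1 (2724) and Rgs2 (2663) were the highest, and Rgs13 was at 0.

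All the listed downstream genes were detected. The 9 PI3K and phospholipase C genes had a median of 1483, led by Pik3r5 (7723), Plcg2 (6260) and Plcb3 (2942), with Pik3r6 (419) the lowest. The 13 genes of the Rac module, which drives the leading edge of a moving cell, had a median of 3065, from Fgr at 194 to Vav1 at 8268, Rac1 at 8971 and Cdc42 at 9648.

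Genes that act on the ligands outside the cell were detected as well. All 8 proteases that trim or shed chemokines were detected (median 3499). Ctss stood at 73268, Mmp14 at 6051 and Adam10, which sheds Cx3cl1 and Cxcl16, at 4875, while Dpp4, which trims the ends of many chemokines, was the lowest at 57. The 7 syndecans and glypicans, which hold chemokines at the cell surface, had a median of 2347, led by Sdc3 (8152), Sdc4 (5708) and Sdc2 (2402), with Gpc1 (732) the lowest.

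Relatives whose symbols fall outside the rule were read too. Mif, a cytokine that binds Cxcr2 and Cxcr4, had a value of 3114, and its other receptor Cd74 one of 49. The chemerin receptor Cmklr1 was at 1281, its ligand Rarres2 at 498 and the chemerin-binding Ccrl2 at 325. The platelet CXC ligand Pf4 stood at 327 and its neighbour Ppbp at 4. Pitpnm3 was at 214, Gpr35 at 85 and Ccr1l1 at 3.

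The label of mixed glia was set beside marker lists. By cell counts, the paper describes such cultures as mostly astrocytes with a smaller part of microglia. A list median does not give the share of a cell type. All 10 microglial markers were detected (median 14866.5), a list that includes Cx3cr1 itself. All 8 astrocyte markers (median 2966.5, Gfap 17222) and all 7 mesenchymal markers (median 7901, Acta2 26499) were detected too. So were all 7 markers of border macrophages (median 543, Ms4a7 7582), though Cd163 and Lyve1 stood at 21. The 6 markers of the oligodendrocyte lineage (median 474.5) were all detected. Of the neuronal markers 4 of 7 were detected (Stmn2 3802, Th 3), and of the endothelial markers 4 of 6 (Flt1 2427, Tek 0).

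Markers of cells that carry several of the low receptors were read as well. Of the dendritic cell list 2 of 5 were detected, Xcr1 itself and Zbtb46 at 57, with Clec9a and Ccr7 at 0. The T cell list had 4 of 7, with Cd3d at 202, Lck at 66, Cd4 at 40 and Zap70 at 15 detected, and with Cd3e and Cd3g at 2 and Cd8a at 1. The NK cell list had 1 of 4 (Klrb1c 10, Nkg7 and Gzma 0) and the B cell list 1 of 5 (Ms4a1 16, with Cd79b and Pax5 at 0). Of the 5 neutrophil markers with a row, 3 were detected, Csf3r at 1131, S100a8 at 129 and Mpo at 11. S100a9 was at 2 and Elane at 0. The part of any of these cells in the chemokine values was not tested.

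**Figure D4:**
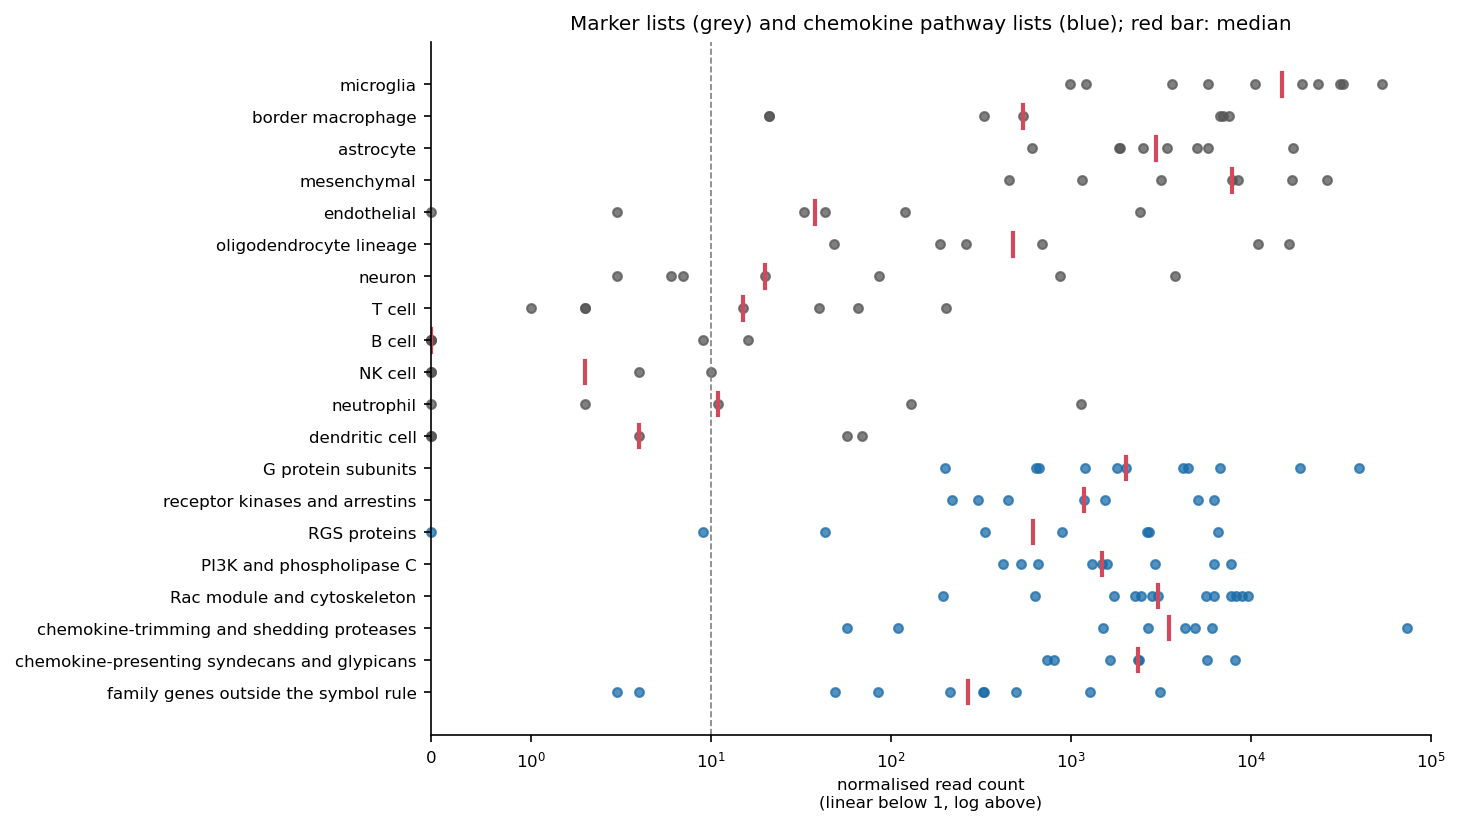
Normalised read count (x axis, linear below 1 and log above, not divided by length) of each gene in the cell marker lists (grey points) and in the chemokine pathway lists (blue points), with the list median as a red bar and the detection minimum of 10 as a dashed line. Microglial markers have the highest median at 14866.5, and the B cell list has a median of 0. In the 7 pathway lists, which were chosen with earlier results of these data known, 61 of 63 genes lie at or above the line, against 67.2% of all rows.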

How the data were processed

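RNA of 1 control library of mouse VM glia was extracted with Trizol, and libraries were made from total RNA with a SMARTer kit. Per the study's methods, bases under quality 20 were trimmed, reads were mapped to GRCm38/mm10 with STAR, and HTSeq-count was run over the exons of NCBI RefSeq Release 105. The submitters' processing notes name TopHat and edgeR instead. The values the authors deposited were normalised read counts per gene, whole numbers handled here as a score and not as raw counts. FPKM values mentioned in the methods were not used here. The normalisation, strand setting, treatment of multi-mapped reads and versions are not given in the sources used here. Since the depth is unknown, no interval or detection floor was given, and another normalisation would change shares and ratios between genes if it acted unequally on them.

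Rows of 1 symbol were summed. The detection minimum was 10. Levels per kb were divided by the union of annotated exons in GENCODE M21 (GRCm38), which is not the annotation counted on and includes exons of retained-intron transcripts. Of 61 members, 58 were matched by symbol, and Ccl19, Ccl21a and Ccl21b were not. Upstream windows came from RefSeq (GRCm38.p6), matched by symbol. Pair ratios used a pseudocount of 1 and understate differences of low genes. All detected members were named, as were members at 0 and partners of detected members, the 3 highest and the lowest gene of each pathway list, and the highest gene and those at 0 of each marker list. A few genes and sequences covered by these rules were left out of the text. Other genes were named after their values were seen. Members and lists were chosen with earlier results of these data known, and the clusters, 50-base words and motifs were chosen after the values were seen. Alternatives were other minima, other lengths, a pseudocount of 0.1 and a sum without the 10 highest genes. The sequence routines were tested on simulated sequences. Python 3.11.15, numpy 2.4.6, pandas 2.3.3 and matplotlib 3.10.9 were used.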

Additional observations from a re-analysis of the deposited data

How the results depend on the processing

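Counts followed the detection minimum. The number of detected members was 47 at a minimum of 1, 42 at 3 and 25 at 100, beside 78.2%, 73.9% and 51.6% of all rows. Pairs with both sides detected numbered 44 at a minimum of 1, 28 at 3 and 10 at 100. Over detected members alone the median was 157. Per kb of exon, the 5 highest ligands held 71.7% and the 3 highest receptors 83.7% of their sums. Without the 10 highest genes the family held 0.157% of the sum, and every share rose 1.15-fold by construction. The direction of the log2 ratio was kept in 22 of 22 pairs with a pseudocount of 0.1 and in 21 of 22 with the longest coding transcript, the exception being Cxcl13 and Ackr4 at -0.58. With that length, 7 of 38 levels per kb moved by more than 1.5-fold, and Ccl25 moved 7.04-fold. No paired analysis was possible because there was 1 library. The cause of these shifts was not tested beyond the change of length or minimum itself. Nothing here shows how values would vary between cultures, and the unknown depth limits what a value near 10 or at 0 can show.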
